A study of Arabidopsis thaliana with 16 samples.

Results

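A set of 37 genes of mitosis and cell division, of the 33602 loci counted, was followed in the rosette region of bolting Arabidopsis thaliana plants. They are the A1, A2 and B cyclins, the plant-specific B-type cyclin-dependent kinases (CDKB) and their CKS subunits, the Aurora kinases with 2 spindle proteins, 4 genes of CDC20 and the spindle checkpoint, and 8 genes of the phragmoplast and cytokinesis. The genes were chosen by locus for what they are known to do. All 37 were in the deposited counts and all 37 passed the filter on low counts. RNA was sequenced from 16 libraries, 4 for each of 4 genotypes. The d14-7 plants carry a mutation in the strigolactone receptor D14, and the scl28 plants in the GRAS transcription factor SCARECROW-LIKE28. The libraries labelled ckx3 ckx5 are of a double mutant of the cytokinin-degrading enzymes CKX3 and CKX5, and the wild type (WT) is Col-0. All 3 mutants are labelled as knockouts. The study asked how these genes act on rosette branching. Plants had a bolt under 1 cm, and leaves, roots and upper stem were cut off, which left the lower stem and its axillary meristems. Each library was a pool of 2 to 3 plants, from the 4 of 5 pools per genotype with the highest RNA integrity, grown in long days (16 h light and 8 h dark). The d14-7, ckx3 ckx5 and WT plants were harvested 23 days after sowing and the scl28 plants 25 days after sowing, so for scl28 the genotype and the harvest day cannot be told apart.

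A dividing plant cell enters mitosis when B-type and A-type cyclins activate cyclin-dependent kinases. Aurora kinases and TPX2 build the spindle, the checkpoint proteins hold the cell until chromosomes are attached, and CDC20 then lets the anaphase-promoting complex (APC/C) destroy the cyclins. The new wall is laid down by the phragmoplast, a plant-specific array of microtubules, onto which kinesins and the syntaxin KNOLLE bring and fuse vesicles. Many genes of this late part of the cycle are transcribed together, under MYB3R transcription factors that bind an element with the core AACGG in their promoters, and SCL28 is itself known as a target and a regulator in this network.

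The AACGG core was common just upstream of these genes, but not in every class. In the 300 bases before the RefSeq gene start (assembly TAIR10.1), on both strands, 24 of the 37 genes (64.9%) had at least 1 AACGG, against 23.4% of 27437 protein-coding genes, and 14 (37.8%) had at least 2, against 4.5%. All 8 phragmoplast and cytokinesis genes and 7 of the 9 B-type cyclins had the motif, as did 3 of 5 A-type cyclins, 3 of 5 Aurora and spindle genes and 2 of 4 CDC20 and checkpoint genes. Of the 6 CDKB and CKS genes only CDKB2;2 had a match, 89 bases before its start. The E2F-type motifs TTTCCCGC and TTTGGCGC, searched in the same way and overlapping no AACGG match, were in none of the 37 windows and in 0.7% and 0.4% of all windows. At shares this low, 37 windows are too few to show a difference. A match of letters is a description, not a binding site. The windows shown are 5′ to 3′ on the gene's strand, with AACGG or its reverse complement CCGTT in capitals. They show a cyclin with 4 matches, a kinesin with 3, the syntaxin KNOLLE with 1 close to its start, and 2 genes of the CDKB and CKS class with none, and they were chosen from the 29 windows that overlap no other gene. CYCB1;2 (chr5:1861704-1862003, minus strand) had matches 143, 69, 43 and 11 bases before the start. PAKRP1L (chr3:8518836-8519135, plus strand) had them 111, 72 and 47 bases before the start, and KNOLLE (chr1:2711001-2711300, minus strand) had its match 12 bases before the start. CDKB1;2 (chr2:16152173-16152472, plus strand) and CKS1 (chr2:11911803-11912102, minus strand) had none.
CYCB1;2: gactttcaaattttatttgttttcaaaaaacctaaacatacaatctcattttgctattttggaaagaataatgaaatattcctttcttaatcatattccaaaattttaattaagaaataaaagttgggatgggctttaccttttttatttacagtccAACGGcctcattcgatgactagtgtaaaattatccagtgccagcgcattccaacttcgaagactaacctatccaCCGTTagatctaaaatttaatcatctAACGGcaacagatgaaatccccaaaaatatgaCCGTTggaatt
PAKRP1L: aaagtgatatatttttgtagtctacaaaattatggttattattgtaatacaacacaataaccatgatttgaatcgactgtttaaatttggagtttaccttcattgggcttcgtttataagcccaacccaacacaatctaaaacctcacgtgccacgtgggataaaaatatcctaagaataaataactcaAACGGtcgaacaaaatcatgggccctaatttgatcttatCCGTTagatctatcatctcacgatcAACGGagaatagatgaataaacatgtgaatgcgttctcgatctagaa
KNOLLE: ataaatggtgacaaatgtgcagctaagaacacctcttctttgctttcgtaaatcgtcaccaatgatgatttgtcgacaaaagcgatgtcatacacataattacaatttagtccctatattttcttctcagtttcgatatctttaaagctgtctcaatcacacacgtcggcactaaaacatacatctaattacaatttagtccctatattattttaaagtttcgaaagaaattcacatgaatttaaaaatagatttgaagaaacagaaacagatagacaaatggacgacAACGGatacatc
CDKB1;2: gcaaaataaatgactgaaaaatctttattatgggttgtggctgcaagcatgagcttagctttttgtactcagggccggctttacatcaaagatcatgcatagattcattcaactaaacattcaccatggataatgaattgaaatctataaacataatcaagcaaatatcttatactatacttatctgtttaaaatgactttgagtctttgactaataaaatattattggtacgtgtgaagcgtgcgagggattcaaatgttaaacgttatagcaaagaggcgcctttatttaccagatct
CKS1: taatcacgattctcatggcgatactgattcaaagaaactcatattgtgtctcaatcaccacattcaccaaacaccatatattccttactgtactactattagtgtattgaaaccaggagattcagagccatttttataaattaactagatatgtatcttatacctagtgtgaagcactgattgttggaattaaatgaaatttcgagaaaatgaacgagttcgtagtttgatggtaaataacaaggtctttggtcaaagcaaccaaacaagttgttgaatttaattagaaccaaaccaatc

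Total counts ran from 24334925 to 36735056 per library. The targeted genes were checked against the labels first. SCL28 (AT1G63100) was at 14 to 18.4 CPM (counts scaled to library size by edgeR's TMM factors) in the scl28 libraries, against 25.8 to 46.2 CPM in WT. D14 (AT3G03990) was at 27.7 to 33.3 CPM in the d14-7 libraries, 25.9 to 29.9 CPM in libraries labelled ckx3 ckx5 and 37.5 to 40.2 CPM in scl28, against 39.2 to 44.1 CPM in WT, so its level does not set the d14-7 libraries apart from those labelled ckx3 ckx5. CKX3 (AT5G56970) went against its label, with 1.43 to 1.96 CPM in libraries labelled ckx3 ckx5 and 0.0527 to 0.65 CPM in WT, and CKX5 (AT1G75450) was at 2.18 to 4.25 CPM in libraries labelled ckx3 ckx5 and 2.11 to 6.11 CPM in WT. Where the alleles interrupt these genes was not stated in the labels, so these counts do not tell whether a whole transcript was made, and every direction given below for that group rests on its label. The 4 WT libraries stood apart from each other in the mitotic genes. The mean log2 CPM of the 37 genes was 4.82 to 5.10 in the d14-7 libraries, 4.72 to 4.90 in the scl28 libraries and 4.70 to 4.89 in libraries labelled ckx3 ckx5, against 4.79, 4.55, 4.17 and 4.06 in WT replicates 1, 2, 3 and 4. Among the WT libraries, 34 of the 37 genes were highest in WT replicate 1, and 28 were lowest in WT replicate 4 and 8 in WT replicate 3. The median SD of a mitotic gene over libraries was 0.154 in d14-7, 0.1 in scl28, 0.109 in libraries labelled ckx3 ckx5 and 0.378 in WT (log2 CPM), where the median over all loci tested was 0.187 in WT. A list of 17 leaf photosynthesis genes, none of them at 0 in any library, fell in the same order over the WT libraries, at a mean log2 CPM of 10.85, 10.42, 10.05 and 9.85. The same leaf value was 10.56 to 10.91 in d14-7, 9.83 to 10.13 in scl28 and 9.90 to 10.19 in libraries labelled ckx3 ckx5. The summed level of a list of 11 shoot meristem and boundary genes ran the other way over the WT libraries, at 258, 361, 419 and 452 CPM. The sum was 269 to 333 CPM in d14-7, 284 to 405 CPM in scl28 and 255 to 298 CPM in libraries labelled ckx3 ckx5, so that WT replicates 3 and 4 lay above all 12 mutant libraries. Most of the sum came from the list's 2 most abundant genes, the meristem factors STM and KNAT1. They were at 90.3, 134, 152 and 172 CPM and at 100, 153, 191 and 204 CPM in WT replicates 1, 2, 3 and 4. Genes at lower levels went both ways over these libraries. RAX1 was at 2.41, 2.99, 4.39 and 4.75 CPM and CUC3 at 3.74, 3.63, 3.12 and 2.77 CPM. CLV3, which marks stem cells, was at most 0.448 CPM. What part this list has in the mitotic values was not tested. Of the other lists of cell types, xylem genes summed to 276 to 325 CPM in d14-7, 178 to 230 CPM in scl28, 258 to 291 CPM in libraries labelled ckx3 ckx5 and 220 to 256 CPM in WT, and root genes reached at most 1.93 CPM.

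**Figure D1:**
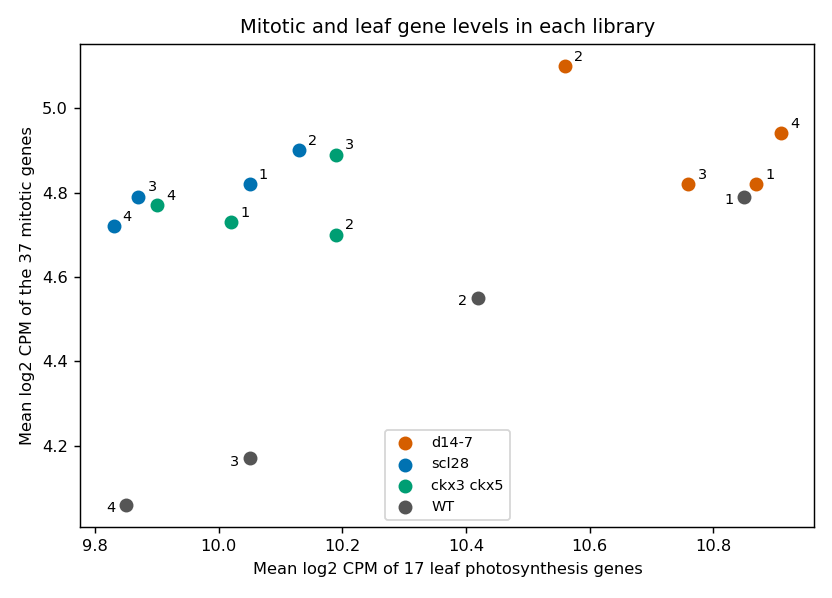
Mean log2 CPM of the 37 mitotic genes (vertical axis) against the mean log2 CPM of 17 leaf photosynthesis genes (horizontal axis), 1 point per library, coloured by genotype label and numbered by replicate. WT replicates 2, 3 and 4 (4.55, 4.17 and 4.06) lie below all 12 mutant libraries, while WT replicate 1 (4.79) lies among them.

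The genes spanned a wide range of levels. Per kilobase of transcript and averaged over the 16 libraries, KNOLLE (AT1G08560) was the highest at 78.7 CPM per kb, followed by CKS2 at 67.3, CDC20.1 at 56.2, CKS1 at 47.9 and CDKB2;1 at 46.9 CPM per kb. The lowest were CYCB2;1 at 3.49 and CYCA2;1 at 0.835 CPM per kb. By group mean, 26 of the 37 genes were highest in d14-7, 6 in scl28 and 5 in libraries labelled ckx3 ckx5, and 35 were lowest in WT. This order was not counted over all loci, and the WT means include the low replicates 3 and 4. Exons of 13 of the genes overlap those of another gene, 11 on the opposite strand, and since strand was not marked such reads cannot be told apart. Further, 17.3% of the 50-base stretches of CYCB2;3 and 11.2% of those of CYCB1;2 occur in another gene, while 23 of the genes share none.

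Every mitotic gene called against WT was higher in the mutant, and none was called lower. The count lower was 0 also by DESeq2, by limma-voom and at p under 0.05 without adjustment. With edgeR's quasi-likelihood test over 20947 loci and a call at a Benjamini-Hochberg adjusted p under 0.05, 31 of 37 were higher in d14-7 (median log2 fold change 0.56), where 18.1% of all loci tested were called higher and 20.6% lower. In scl28, 19 of 37 were higher (median 0.42), against 9.3% of all loci called higher and 10.5% lower. In libraries labelled ckx3 ckx5, 13 of 37 were higher (median 0.36), against 13.6% of all loci called higher and 16% lower. The median over all loci lay between -0.01 and 0.01 in these 3 comparisons. Every mutant library was above every WT library for 13 genes in d14-7 (10.8% of all loci), for 7 in scl28 (9.65% of all loci) and for 10 in libraries labelled ckx3 ckx5 (13.1% of all loci). The 3 comparisons share the WT libraries. In bulk tissue, more dividing cells and more RNA per dividing cell cannot be told apart. The 7 genes called higher in all 3 comparisons were CYCB1;4, CYCB2;4, CDKB1;2, CDKB2;1, EDE1, CDC20.2 and MAD2. Of these, only CDKB1;2 kept its call in all 3 comparisons in every fit without 1 library. The share of all loci called higher in all 3 was not counted. The size of these counts rested on single libraries, and the medians moved with the WT libraries kept. The plot of calls by setting shows fits without pairs of WT libraries. Without WT replicates 3 and 4, 7 genes were called higher in d14-7, 3 in scl28 and 4 in libraries labelled ckx3 ckx5. In that fit 3.75%, 6.01% and 7.43% of all loci were called higher. The medians of the 37 genes were 0.28, 0.16 and 0.07 there, and 2, 5 and 7 of the genes had a negative change. Without WT replicates 1 and 2 the counts were 35, 34 and 34, where 25.2%, 18.4% and 22.8% of all loci were. The medians were then 0.91, 0.74 and 0.67. Of single libraries, leaving out WT replicate 3 gave 22, 7 and 8, leaving out WT replicate 4 gave 24, 7 and 8, and leaving out WT replicate 1 gave 34, 32 and 33. Mutant libraries moved the counts too. In scl28 the count was 7 without scl28 replicate 2 (7.05% of all loci), 10 without replicate 1 (6.63%) and 12 without replicate 3 (6.67%). In libraries labelled ckx3 ckx5 it was 8 without their replicate 3 (9.89% of all loci) and 9 without replicate 4 (9.87%). In d14-7 it was 23 without d14-7 replicate 2 (11.5%).

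**Figure D2:**
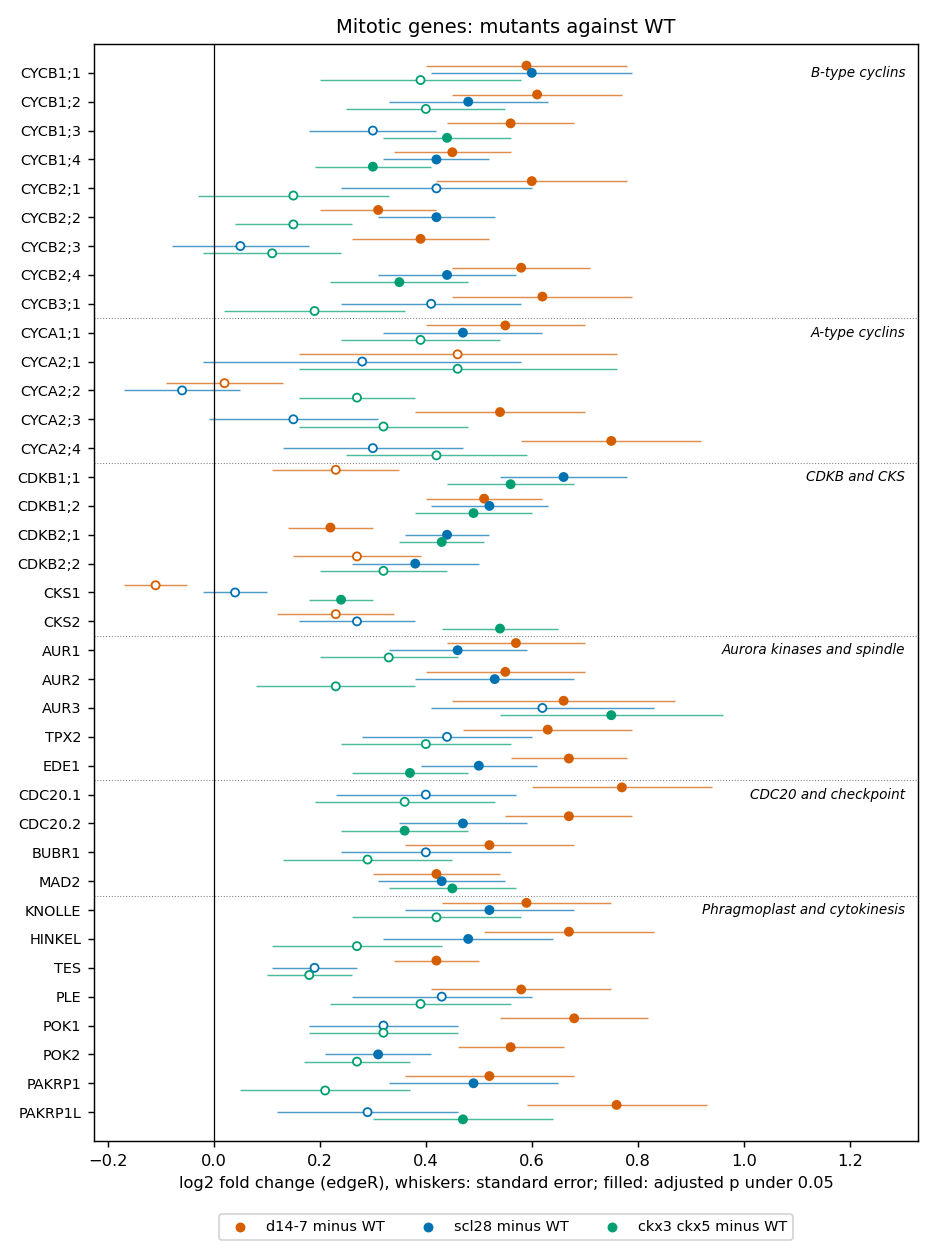
Log2 fold change of each of the 37 genes (horizontal axis, whiskers: standard error) in d14-7, scl28 and the libraries labelled ckx3 ckx5, each minus WT, by class from top to bottom, with points filled where genes had an edgeR adjusted p under 0.05. Nearly all points lie right of 0, and in the CDKB and CKS class the d14-7 points lie left of the others for 5 of the 6 genes.

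All 9 B-type cyclins, the regulatory subunits that bring kinases to mitosis, were higher in d14-7 than in WT, with log2 fold changes from 0.31 to 0.62. In scl28, 5 were higher (CYCB1;1, CYCB1;2, CYCB1;4, CYCB2;2 and CYCB2;4) and in libraries labelled ckx3 ckx5 3 were (CYCB1;3, CYCB1;4 and CYCB2;4). The shares of all loci called higher were 18.1% in d14-7, 9.3% in scl28 and 13.6% in libraries labelled ckx3 ckx5. CYCB1;2 (AT5G06150), the highest of them, was at 72.8, 97.3, 76.5 and 86.6 CPM in the d14-7 libraries and 72.6, 83.9, 76.1 and 72.2 CPM in the scl28 libraries. For CYCB1;2, libraries labelled ckx3 ckx5 had 68.9, 65.8, 79.7 and 73.2 CPM and WT libraries 74.1, 61.7, 44.2 and 38.7 CPM. The mutant libraries overlapped WT replicate 1 and lay above WT replicates 2, 3 and 4. Its log2 fold change was 0.61 ± 0.16 (SE, edgeR adjusted p = 0.00732) in d14-7, 0.48 ± 0.15 (edgeR adjusted p = 0.0389) in scl28 and 0.40 ± 0.15 (edgeR adjusted p = 0.0647) in libraries labelled ckx3 ckx5. CYCB1;1 (AT4G37490), a common marker of cells in G2 and mitosis, was at 20.8, 30.6, 20.5 and 24.7 CPM in d14-7 and 24.1, 29.4, 22.3 and 21.5 CPM in scl28. For CYCB1;1, libraries labelled ckx3 ckx5 had 20.3, 18.2, 23.9 and 21.5 CPM and WT libraries 22.5, 18.6, 12.3 and 11 CPM. WT replicates 3 and 4 were the 2 lowest of the 16 libraries. It changed by 0.59 ± 0.19 (edgeR adjusted p = 0.0243) in d14-7 and by 0.60 ± 0.19 (edgeR adjusted p = 0.0372) in scl28, with 0.39 ± 0.19 (edgeR adjusted p = 0.141) in libraries labelled ckx3 ckx5. Among the rest, CYCB3;1 (AT1G16330) rose by 0.62 ± 0.17 in d14-7 and CYCB2;3 (AT1G20610) by 0.39 ± 0.13, while CYCB2;3 was at 0.05 ± 0.13 in scl28 and 0.11 ± 0.13 in libraries labelled ckx3 ckx5. The other called rises were 0.56 in d14-7 and 0.44 in libraries labelled ckx3 ckx5 for CYCB1;3 (AT3G11520), 0.45, 0.42 and 0.30 in the 3 mutants for CYCB1;4 (AT2G26760), 0.60 in d14-7 for CYCB2;1 (AT2G17620), 0.31 in d14-7 and 0.42 in scl28 for CYCB2;2 (AT4G35620), and 0.58, 0.44 and 0.35 in the 3 mutants for CYCB2;4 (AT1G76310). In d14-7, fits without 1 library ended the call of CYCB1;1 and CYCB2;2 (WT replicate 3 or 4, d14-7 replicate 2 or 4), CYCB2;3 (WT replicate 2 or 3, d14-7 replicate 2 or 4) and CYCB2;1 (WT replicate 4), with log2 fold changes of 0.23 to 0.58 and adjusted p of 0.0517 to 0.137. In scl28 they ended those of CYCB1;1 and CYCB1;2 (WT replicate 3 or 4, scl28 replicate 1, 2 or 3), CYCB2;4 (WT replicate 3 or 4, scl28 replicate 2) and CYCB2;2 (scl28 replicate 2), with 0.32 to 0.64 and adjusted p of 0.0515 to 0.123. In libraries labelled ckx3 ckx5, CYCB1;4 lost its call without WT replicate 3 or 4 or any library of its own group, CYCB2;4 without WT replicate 2, 3 or 4 or ckx3 ckx5 replicate 1, 3 or 4 (0.23 to 0.36), and CYCB1;3 in none of the 8 fits.

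The 5 A-type cyclins, which act from S phase into mitosis, moved less evenly. CYCA1;1 (AT1G44110) was at 35.6, 44.8, 39.1 and 42.2 CPM in d14-7 and 39.2, 42.8, 36.8 and 33.9 CPM in scl28. For CYCA1;1, libraries labelled ckx3 ckx5 had 35, 35.6, 39.6 and 34.5 CPM and WT libraries 36.9, 31.4, 23.6 and 18.6 CPM. Only WT replicate 1 reached the mutant range. It rose by 0.55 ± 0.15 (edgeR adjusted p = 0.0111) in d14-7 and by 0.47 ± 0.15 (edgeR adjusted p = 0.0398) in scl28, where the call was lost without WT replicate 3 or 4 or scl28 replicate 1, 2 or 3 (0.32 to 0.49). CYCA2;4 (AT1G80370) was at 16.4, 19.7, 16.2 and 19 CPM in d14-7 and 13.4, 12.9, 13.8 and 12 CPM in scl28. For CYCA2;4, libraries labelled ckx3 ckx5 had 14.9, 12.2, 16.7 and 13 CPM and WT libraries 14.5, 12.7, 8.21 and 7.17 CPM. All 4 d14-7 libraries lay above all 4 WT libraries, with a log2 fold change of 0.75 ± 0.17 (edgeR adjusted p = 0.00421), against 0.30 ± 0.17 in scl28 and 0.42 ± 0.17 in libraries labelled ckx3 ckx5, neither called. CYCA2;3 (AT1G15570), a partner of CDKB1;1, rose by 0.54 ± 0.16 in d14-7, where the call was lost without WT replicate 3 (0.44, edgeR adjusted p = 0.054). CYCA2;2 (AT5G11300) was at 6.95, 8.76, 7.54 and 6.86 CPM in d14-7 and 7.3, 5.92, 7.04 and 8.16 CPM in scl28. For CYCA2;2, libraries labelled ckx3 ckx5 had 8.72, 8.92, 8.58 and 9.52 CPM and WT libraries 7.35, 8.02, 6.77 and 7.51 CPM. Its highest WT value was in replicate 2, and the 4 libraries labelled ckx3 ckx5 overlapped d14-7 but lay above all of scl28 and WT. It was not called in any mutant against WT, and neither was CYCA2;1 (AT5G25380), which was at most 2.2 CPM in any library.

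The CDKB and CKS genes, the catalytic kinases of plant mitosis and the small subunits that dock them to their substrates, were called in other numbers. Against WT, 2 of the 6 were higher in d14-7, 4 in scl28 and 5 in libraries labelled ckx3 ckx5, where 18.1%, 9.3% and 13.6% of all loci were. Every library labelled ckx3 ckx5 was above every WT library for 5 of the genes, against 13.1% of all loci. CDKB1;1 (AT3G54180) was at 24.2, 29.3, 24.3 and 25.2 CPM in d14-7 and 31.1, 42.8, 33 and 31.8 CPM in scl28. For CDKB1;1, libraries labelled ckx3 ckx5 had 30.5, 31.1, 32.5 and 35 CPM and WT libraries 26.3, 24.3, 18.7 and 18.7 CPM. The scl28 libraries and those labelled ckx3 ckx5 lay above all d14-7 and WT libraries, while d14-7 overlapped WT. It rose by 0.66 ± 0.12 (edgeR adjusted p = 0.00127) in scl28 and by 0.56 ± 0.12 (edgeR adjusted p = 0.00249) in libraries labelled ckx3 ckx5, and the value in d14-7 was 0.23 ± 0.12 (edgeR adjusted p = 0.141). CDKB2;1 (AT1G76540) was at 57.2, 69.3, 58.9 and 59.7 CPM in d14-7 and 69.8, 73.1, 74 and 69.9 CPM in scl28. For CDKB2;1, libraries labelled ckx3 ckx5 had 66.7, 69.6, 75.3 and 72.4 CPM and WT libraries 59.1, 57.5, 48.8 and 45.5 CPM. Its log2 fold change was 0.22 ± 0.08 (edgeR adjusted p = 0.043) in d14-7, 0.44 ± 0.08 (edgeR adjusted p = 0.00119) in scl28 and 0.43 ± 0.08 (edgeR adjusted p = 0.000797) in libraries labelled ckx3 ckx5. CDKB1;2 (AT2G38620) rose by 0.51, 0.52 and 0.49 in the 3 mutants, and CDKB2;2 (AT1G20930) by 0.38 in scl28.

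The 2 CKS genes, which lie next to each other on chromosome 2, were called against WT in libraries labelled ckx3 ckx5 and, with all 16 libraries in the fit, in no other mutant. CKS1 (AT2G27960) was at 32.3, 37.9, 37.2 and 40 CPM in d14-7 and 42.8, 39.3, 40.8 and 39.8 CPM in scl28. For CKS1, libraries labelled ckx3 ckx5 had 44.4, 49.1, 45.9 and 47.9 CPM and WT libraries 37.9, 41.4, 41.3 and 38.1 CPM. The WT libraries held together for this gene, with an SD of 1.92 CPM, and the libraries labelled ckx3 ckx5 were the 4 highest of the 16. Its log2 fold change was 0.24 ± 0.06 (edgeR adjusted p = 0.0101) in libraries labelled ckx3 ckx5, -0.11 ± 0.06 (edgeR adjusted p = 0.2) in d14-7 and 0.04 ± 0.06 (edgeR adjusted p = 0.741) in scl28. CKS2 (AT2G27970) was at 48.3, 55, 45.8 and 49.6 CPM in d14-7 and 49.4, 56.6, 51.4 and 47.9 CPM in scl28. For CKS2, libraries labelled ckx3 ckx5 had 55.2, 59.8, 64.8 and 66.4 CPM and WT libraries 52.3, 46.6, 37.4 and 33.9 CPM. It rose by 0.54 ± 0.11 (edgeR adjusted p = 0.00186) in libraries labelled ckx3 ckx5. In this class, fits without 1 library ended the call of CDKB2;1 in d14-7 (WT replicate 3 or 4, d14-7 replicate 2 or 4, 0.15 to 0.23) and of CDKB2;2 in scl28 (WT replicate 3 or 4, scl28 replicate 1, 2 or 3, 0.27 to 0.38), and no other. Calls were also gained. Without WT replicate 1, CKS2 was called at 0.34 in d14-7 (edgeR adjusted p of 0.00937) and at 0.39 in scl28 (edgeR adjusted p of 0.00921), as were CDKB1;1 (0.33) and CDKB2;2 (0.41) in d14-7 and CDKB2;2 (0.46) in libraries labelled ckx3 ckx5. The rises of CDKB1;2 and CDKB2;1 in scl28 and in libraries labelled ckx3 ckx5, of CDKB1;1 in scl28, and of CKS1 and CKS2 in libraries labelled ckx3 ckx5 were called under all 20 alternative settings, including the fit without WT replicates 3 and 4.

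**Figure D3:**
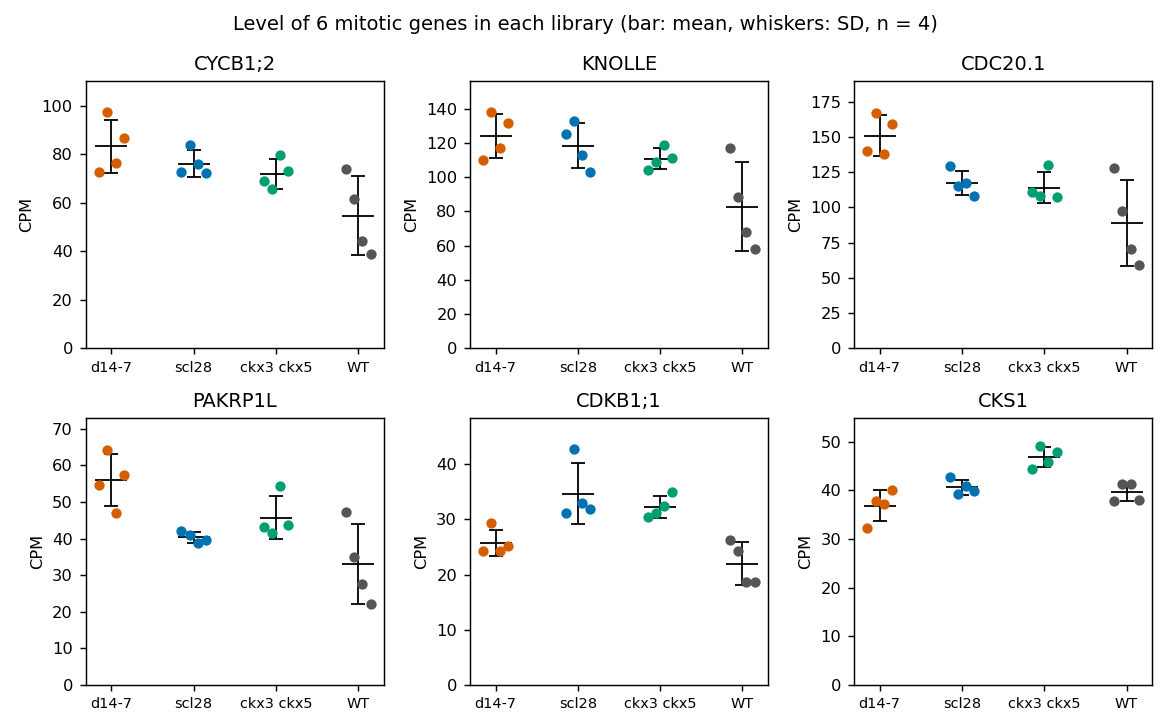
CPM of 6 genes in every library (points), by genotype, with the mean (bar) and SD (whiskers, n = 4), on a vertical axis that starts at 0. CYCB1;2, KNOLLE, CDC20.1 and PAKRP1L have their highest mean in d14-7 and a wide spread in WT, CDKB1;1 has its lowest mutant mean in d14-7 (25.8 CPM), and CKS1 is highest in libraries labelled ckx3 ckx5 (46.8 ± 2.11 CPM, against 39.7 ± 1.92 CPM in WT).

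All 5 Aurora and spindle genes were higher in d14-7 than in WT, 3 in scl28 (AUR1, AUR2 and EDE1) and 2 in libraries labelled ckx3 ckx5 (AUR3 and EDE1). Over all loci the shares called higher were 18.1%, 9.3% and 13.6%. TPX2 (AT1G03780), which nucleates spindle microtubules and activates Aurora, was at 50.9, 62.8, 49.8 and 59.5 CPM in d14-7 and 54, 45.8, 47.9 and 48.7 CPM in scl28. For TPX2, libraries labelled ckx3 ckx5 had 45.9, 46.3, 56.3 and 42.5 CPM and WT libraries 49.5, 40.7, 29.4 and 25.3 CPM. The d14-7 libraries were all above the WT libraries, by a narrow margin over WT replicate 1, and the log2 fold change was 0.63 ± 0.16 (edgeR adjusted p = 0.0074). AUR2 (AT2G25880), a kinase of the spindle and the cell plate, was at 31.1, 40.7, 31.1 and 36.7 CPM in d14-7 and 34.5, 40.2, 33.2 and 29.7 CPM in scl28. For AUR2, libraries labelled ckx3 ckx5 had 27, 26, 30 and 28.9 CPM and WT libraries 32.4, 25.7, 20.4 and 17.1 CPM. It rose by 0.55 ± 0.15 (edgeR adjusted p = 0.0119) in d14-7 and by 0.53 ± 0.15 (edgeR adjusted p = 0.0239) in scl28. Of the exon bases of AUR2, 36.9% overlap those of a neighbouring gene, and strand was not marked, so its counts may include reads of that gene. AUR3 (AT2G45490), the Aurora kinase of centromeres, was at 6.03, 8.73, 4.91 and 6.05 CPM in d14-7 and 6.36, 7.3, 6.08 and 5.18 CPM in scl28. For AUR3, libraries labelled ckx3 ckx5 had 5.54, 7.3, 7.92 and 6.55 CPM and WT libraries 5.24, 4.99, 3.56 and 2.56 CPM. It rose by 0.66 ± 0.21 (edgeR adjusted p = 0.0232) in d14-7 and by 0.75 ± 0.21 (edgeR adjusted p = 0.0143) in libraries labelled ckx3 ckx5, which were all above WT. EDE1 (AT2G44190), a microtubule-binding protein of the spindle and phragmoplast, rose by 0.67 ± 0.11, 0.50 ± 0.11 and 0.37 ± 0.11 in d14-7, scl28 and the libraries labelled ckx3 ckx5, and AUR1 (AT4G32830) by 0.57 ± 0.13 in d14-7 and 0.46 ± 0.13 in scl28. Fits without 1 library ended the call of AUR3 in d14-7 (WT replicate 3 or 4, d14-7 replicate 2, 0.48 to 0.60), of AUR1 (WT replicate 3 or 4, scl28 replicate 3, 0.36 to 0.43) and AUR2 (WT replicate 3 or 4, scl28 replicate 1 or 2, 0.40 to 0.53) in scl28, and of EDE1 in libraries labelled ckx3 ckx5 (WT replicate 3 or 4, ckx3 ckx5 replicate 3, 0.27 to 0.33).

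All 4 genes of CDC20 and the checkpoint were higher in d14-7, where 18.1% of all loci were called higher. CDC20.1 (AT4G33270), the activator that turns the APC/C on cyclins in anaphase, had the largest called change of the 37 genes there. It was at 140, 167, 138 and 159 CPM in d14-7 and 129, 115, 117 and 108 CPM in scl28. For CDC20.1, libraries labelled ckx3 ckx5 had 111, 108, 130 and 107 CPM and WT libraries 128, 97.5, 70.5 and 59 CPM. All d14-7 libraries were above all others. Its log2 fold change was 0.77 ± 0.17 (edgeR adjusted p = 0.00333) in d14-7, 0.40 ± 0.17 (edgeR adjusted p = 0.106) in scl28 and 0.36 ± 0.17 (edgeR adjusted p = 0.122) in libraries labelled ckx3 ckx5. CDC20.2 (AT4G33260), its neighbour on chromosome 4, rose by 0.67, 0.47 and 0.36 in the 3 mutants. The pair share 31.4% and 33.2% of their 50-base stretches, so reads may have been split between them. MAD2 (AT3G25980) rose by 0.42, 0.43 and 0.45 in the 3 mutants, and BUBR1 (AT2G33560) by 0.52 in d14-7. Both are checkpoint proteins that hold CDC20 inactive. Fits without 1 library ended the call of BUBR1 in d14-7 (WT replicate 3 or 4, d14-7 replicate 2, 0.38 to 0.45), of MAD2 in scl28 (WT replicate 3 or 4, scl28 replicate 2, 0.35 to 0.38) and of CDC20.2 in libraries labelled ckx3 ckx5 (WT replicate 3 or 4, ckx3 ckx5 replicate 1, 3 or 4, 0.24 to 0.37).

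All 8 phragmoplast and cytokinesis genes were higher in d14-7 than in WT, with log2 fold changes of 0.42 to 0.76. In scl28, 4 were higher (KNOLLE, HINKEL, POK2 and PAKRP1), and in libraries labelled ckx3 ckx5 1 was, PAKRP1L. Over all loci 18.1%, 9.3% and 13.6% were called higher, so the 1 of 8 is near the share of all loci. KNOLLE (AT1G08560), the syntaxin of the cell plate, was at 110, 138, 117 and 132 CPM in d14-7 and 125, 133, 113 and 103 CPM in scl28. For KNOLLE, libraries labelled ckx3 ckx5 had 104, 109, 119 and 111 CPM and WT libraries 117, 88.6, 67.9 and 57.8 CPM. WT replicate 1 lay within the mutant range and the other WT libraries below it. Its log2 fold change was 0.59 ± 0.16 (edgeR adjusted p = 0.00991) in d14-7, 0.52 ± 0.16 (edgeR adjusted p = 0.0292) in scl28 and 0.42 ± 0.16 (edgeR adjusted p = 0.0559) in libraries labelled ckx3 ckx5, and 33.5% of its exon bases overlap those of a neighbouring gene. PAKRP1L (AT3G23670), a kinesin-12 of the phragmoplast midzone, was at 54.7, 64.3, 47.1 and 57.5 CPM in d14-7 and 42.2, 40.9, 38.8 and 39.5 CPM in scl28. For PAKRP1L, libraries labelled ckx3 ckx5 had 43.1, 41.4, 54.3 and 43.8 CPM and WT libraries 47.3, 34.9, 27.7 and 22.2 CPM. It rose by 0.76 ± 0.17 (edgeR adjusted p = 0.00315) in d14-7 and by 0.47 ± 0.17 (edgeR adjusted p = 0.0445) in libraries labelled ckx3 ckx5. In d14-7, POK1 (AT3G17360) and POK2 (AT3G19050), kinesins that keep the division plane, rose by 0.68 ± 0.14 and 0.56 ± 0.10. HINKEL (AT1G18370), a kinesin that activates the cytokinetic MAP kinase cascade, rose by 0.67 ± 0.16 there, its relative TES (AT3G43210) by 0.42 ± 0.08, PLE (AT5G51600), a microtubule crosslinker, by 0.58 ± 0.17 and PAKRP1 (AT4G14150) by 0.52 ± 0.16. In scl28, HINKEL rose by 0.48, POK2 by 0.31 and PAKRP1 by 0.49. In d14-7, fits without 1 library ended the call of PLE (WT replicate 3, d14-7 replicate 2) and PAKRP1 (WT replicate 3 or 4, d14-7 replicate 2), with 0.39 to 0.50. None of the calls in scl28 held in all 8 such fits: KNOLLE lost its own without WT replicate 3 or 4 or scl28 replicate 1 or 2, PAKRP1 without these or scl28 replicate 3, POK2 without WT replicate 3 or 4 or scl28 replicate 1, 2 or 4, and HINKEL without any library but WT replicate 1, with 0.21 to 0.52. PAKRP1L lost its call in libraries labelled ckx3 ckx5 without any library but WT replicate 1 (0.32 to 0.51).

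Set directly against each other in the fit of all 16 libraries, the mutants differed in few of the genes, and in both directions. WT is not in these contrasts, but its spread is pooled into the fit. Against scl28, d14-7 was higher in 5 genes and lower in 2 (median of the 37 genes 0.13), where 20% of all loci were called higher and 22.5% lower. Against the libraries labelled ckx3 ckx5, d14-7 was higher in 3 and lower in 4 (median 0.22), where 17.8% of all loci were called higher and 19% lower. In scl28 against libraries labelled ckx3 ckx5, none was higher and 2 were lower (median 0.04), where 13.1% of all loci were called higher and 11.5% lower. In this fit the shares of the 37 genes called were at or under those of all loci. For the 0 in the last comparison, DESeq2 and limma-voom also gave 0, and without adjustment 1 gene had p under 0.05. Fits on the 2 groups alone called 10 higher and 2 lower in d14-7 against scl28, where 22.7% and 22.3% of all loci were. Against the libraries labelled ckx3 ckx5 they called 17 higher and 4 lower in d14-7, where 23.5% and 22.3% of all loci were. In scl28 against those libraries they called 3 higher and 3 lower, where 15.2% and 14.7% of all loci were.

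No class was tested as a class. The genes called lower in d14-7 were CDKB or CKS genes: CDKB1;1 by -0.43 ± 0.12 against scl28 (edgeR adjusted p = 0.00952) and by -0.33 ± 0.12 against libraries labelled ckx3 ckx5 (edgeR adjusted p = 0.0432), CDKB2;1 by -0.23 ± 0.08 (edgeR adjusted p = 0.0328) and -0.21 ± 0.08 (edgeR adjusted p = 0.0495). Against the libraries labelled ckx3 ckx5, CKS1 was also lower by -0.34 ± 0.06 (edgeR adjusted p = 0.000548) and CKS2 by -0.31 ± 0.11 (edgeR adjusted p = 0.039), which makes 4 of the 6 genes of the class, against 2 of the 6 in the comparison with scl28. The genes called higher in d14-7 against scl28 were PAKRP1L (0.47 ± 0.17, edgeR adjusted p = 0.0317), CYCA2;4 (0.45 ± 0.17), POK1 (0.36 ± 0.14), CYCB2;3 (0.34 ± 0.13) and TES (0.22 ± 0.08), and those against libraries labelled ckx3 ckx5 were EDE1 (0.30 ± 0.11), POK2 (0.29 ± 0.10, edgeR adjusted p = 0.0341) and TES (0.23 ± 0.08). Of all 37 genes, 28 had a positive difference in each of these 2 comparisons. Of the 8 phragmoplast genes, all 8 had a positive difference in both comparisons, and of the 6 CDKB and CKS genes, 6 had a negative one against scl28 and 5 against libraries labelled ckx3 ckx5. In scl28, CYCA2;2 (-0.33 ± 0.11, edgeR adjusted p = 0.0307) and CKS1 (-0.20 ± 0.06, edgeR adjusted p = 0.0276) were lower than in libraries labelled ckx3 ckx5. Of these 16 calls, 2 held in all 8 fits without 1 library, CDKB1;1 in d14-7 against scl28 and CKS1 in d14-7 against libraries labelled ckx3 ckx5. Each of the others was lost in 5 to 7 of the 8, so that libraries of both groups decide it, with adjusted p between 0.0501 and 0.144. The leaf value of the d14-7 libraries lay above all scl28 libraries and all those labelled ckx3 ckx5, so a fit cannot separate it from genotype here. With it as a covariate no gene was called higher in d14-7 by edgeR in either comparison, and 8 and 5 were called lower. Of all loci, 9.31% and 11.8% were called higher and 10% and 11.2% lower. In that fit 35 of the 37 genes had a negative difference against scl28 and 32 against libraries labelled ckx3 ckx5.

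**Figure D4:**
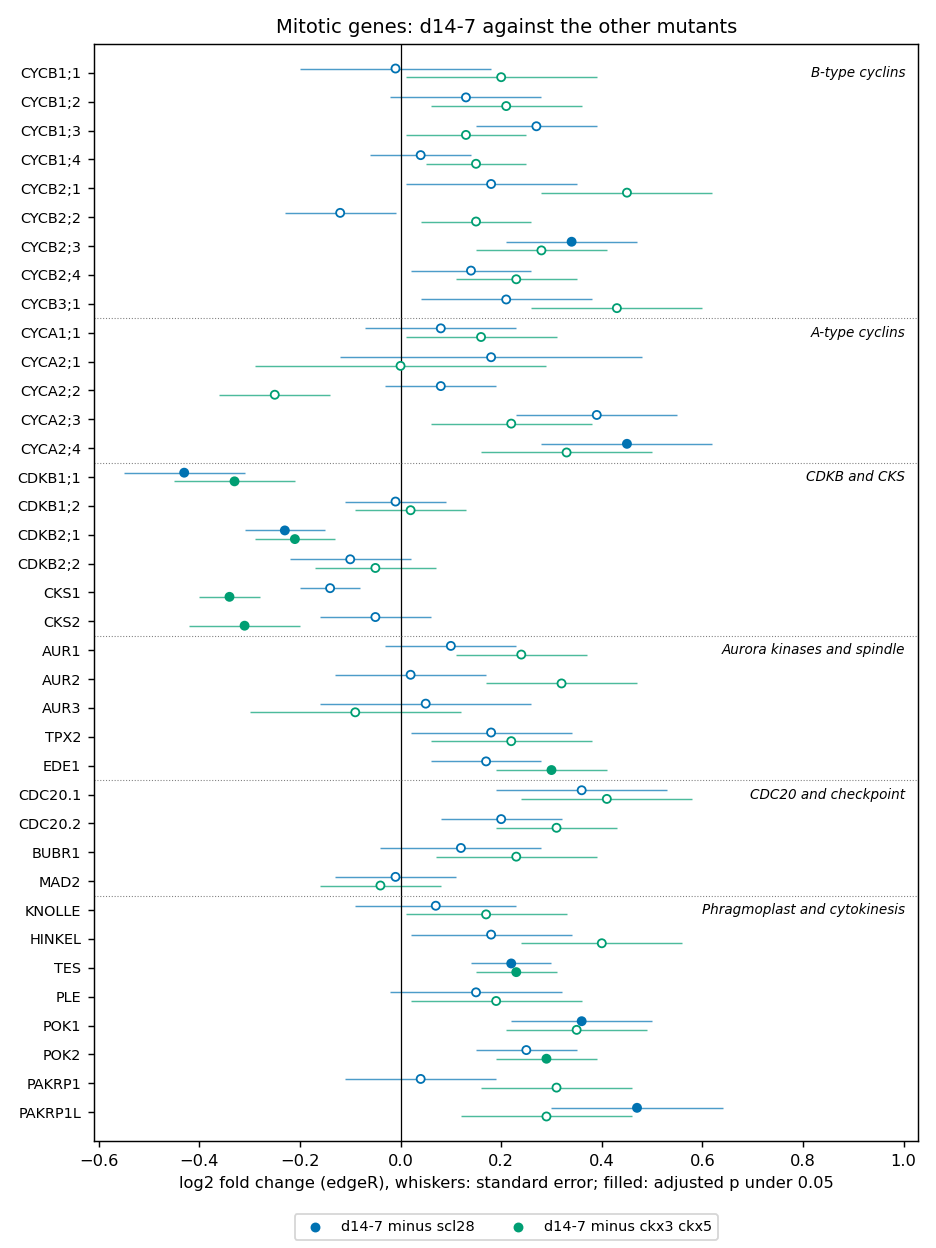
Log2 fold change of each of the 37 genes (horizontal axis, whiskers: standard error) in d14-7 minus scl28 and in d14-7 minus the libraries labelled ckx3 ckx5, with points filled where genes had an edgeR adjusted p under 0.05. Of the 6 CDKB and CKS genes, 5 lie left of 0 in both comparisons, with CDKB1;1 at -0.43 and -0.33, and the 8 phragmoplast and cytokinesis genes lie right of it.

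Other genes of the cell cycle were counted from lists of known function, beside which 18.1% of all loci were called higher and 20.6% lower in d14-7, 9.3% and 10.5% in scl28 and 13.6% and 16% in libraries labelled ckx3 ckx5. Of 12 partners in spindle and chromosome work, 10 were higher in d14-7, 4 in scl28 and 7 in libraries labelled ckx3 ckx5, and none was lower. WYR, the INCENP subunit that works with Aurora in the chromosomal passenger complex, rose by 0.69 ± 0.11 in d14-7, and 3xHMG-box2, a protein of mitotic chromosomes, by 0.50 ± 0.15 in scl28 and 0.72 ± 0.15 in libraries labelled ckx3 ckx5. Of 11 further checkpoint genes and regulators of the APC/C, 6, 7 and 4 were higher in d14-7, scl28 and the libraries labelled ckx3 ckx5. PANS1, a protector of sister chromatid cohesion, rose by 0.64 ± 0.15 in d14-7, UVI4 by 0.56 ± 0.18 in scl28, and OSD1 by 0.64 ± 0.15 in libraries labelled ckx3 ckx5. UVI4 and OSD1 are inhibitors of the APC/C. Of the 11 core subunits of the APC/C, 2, 0 and 2 were higher, with median log2 fold changes of 0.17, 0.14 and 0.14. The largest change was 0.52 in d14-7 and 0.74 in libraries labelled ckx3 ckx5. APC10 was at 30.2 to 34.9 CPM in libraries labelled ckx3 ckx5, against 18.4 to 19.9 CPM in WT. In scl28 none of the 11 was called by edgeR, and 3 were higher at an unadjusted p under 0.05.

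Of 17 partners in cytokinesis, 6 were higher and 1 lower in d14-7, 7 and 2 in scl28, and 7 and 3 in libraries labelled ckx3 ckx5. ANP3, a kinase of the cascade that HINKEL activates, rose by 0.51 ± 0.14, 0.48 ± 0.14 and 0.48 ± 0.14 in the 3 mutants. SNAP33, a SNARE partner of KNOLLE that is also used in other membrane fusion, was lower in all 3, by -0.23 ± 0.05, -0.45 ± 0.05 and -0.32 ± 0.05. Of 10 other genes of the same kinds (CDKA, CDKD and CDKF kinases, A1 and A3 cyclins, and WEE1, a kinase that inhibits cyclin-dependent kinases), 4 were higher and 3 lower in d14-7, among them CDKA;1, the kinase that serves the whole cycle, at -0.29 ± 0.07. In scl28 1 of these 10 was higher, CYCA3;1 by 0.57 ± 0.17, and in libraries labelled ckx3 ckx5 edgeR called none, with 5 higher at an unadjusted p under 0.05. Of 13 genes of S phase, 10 were higher in d14-7, led by CDC6 at 0.77 ± 0.24 and MCM6 at 0.69 ± 0.16, and 2, PCNA1 and PCNA2, were higher in libraries labelled ckx3 ckx5. In scl28 edgeR called none of the 13, and 5 were higher at an unadjusted p under 0.05. The median log2 fold change of the 13 was 0.52, 0.32 and 0.29 in the 3 mutants. Among the regulators, MYB3R4, an activator of mitotic genes, rose by 0.47 ± 0.09, 0.38 ± 0.09 and 0.28 ± 0.09 in d14-7, scl28 and the libraries labelled ckx3 ckx5. MYB3R1 rose by 0.25 ± 0.07 in d14-7, and was also higher there than in scl28 (0.25 ± 0.07) and in libraries labelled ckx3 ckx5 (0.27 ± 0.07). SCL28 rose by 0.49 ± 0.14 in d14-7 and was lower by -1.23 ± 0.15 in scl28, where 19 of the 37 mitotic genes were higher than in WT and none was called lower. These list members were set against the same WT libraries as the 37 genes.

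**Figure D5:**
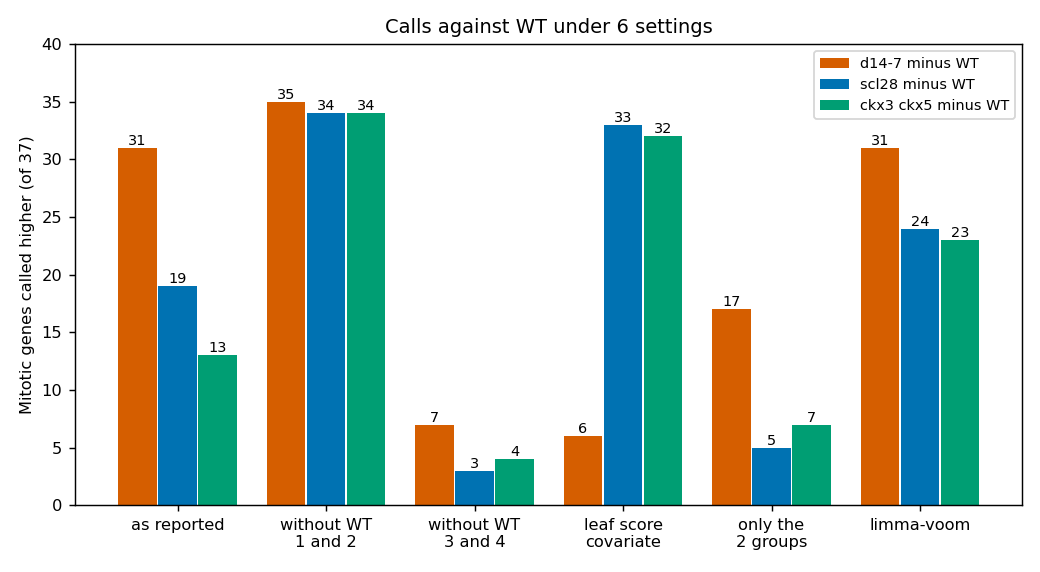
Number of the 37 genes called higher than in WT (vertical axis, from 0) in d14-7, scl28 and the libraries labelled ckx3 ckx5 under 6 settings. As reported the counts are 31, 19 and 13. They are 7, 3 and 4 without WT replicates 3 and 4, and 6, 33 and 32 with the leaf value as a covariate. The shares of all loci called higher are 18.1%, 9.3% and 13.6% as reported. They are 3.75%, 6.01% and 7.43% without WT replicates 3 and 4, and 4.02%, 18.4% and 23% with the covariate.

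Settings of the fit that concern WT moved these counts as the plot of calls by setting shows. In fits on 2 groups alone the spread of WT is not pooled with that of all the mutants. They called 17, 5 and 7 genes higher in d14-7, scl28 and the libraries labelled ckx3 ckx5. Of all loci, 9.91%, 4.12% and 9.88% were called higher in these fits. With the leaf value as a covariate the counts were 6, 33 and 32, where 4.02%, 18.4% and 23% of all loci were. The genes of d14-7 called under all 20 alternative settings were EDE1, CDC20.1, CDC20.2, POK1 and POK2.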

How the data were processed

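Poly(A) RNA was sequenced from 16 libraries, 4 per genotype, and groups and replicate numbers were taken from the titles in the labels. Estimated counts, in whole numbers, were deposited by the authors for each of 41671 transcript models. Their totals differ between libraries. They also deposited a normalized signal table, whose ratio of signal to count was within 1% of its library's median for 99.23% of values with at least 20 counts. TAIR10 and DESeq2 are named in the submitters' processing notes, with no version for DESeq2. No aligner, counting tool or strand setting was given in the sources used here. The library kit, per the labels' protocols, does not mark strand.

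Counts were summed to 33602 loci. edgeR 4.0.16 (R 4.3.3; TMM, filterByExpr, quasi-likelihood with robust estimation) fitted all 16 libraries in 1 model with 4 group means and no other term, and p-values were adjusted by Benjamini-Hochberg over the 20947 loci tested. Levels are CPM, and log2 CPM used a prior count of 2. The SE of a log2 fold change was its absolute value divided by the square root of the quasi-likelihood F statistic. Libraries of 1 group differed by more than sampling noise (chi-square per locus 4.75 to 97.73). P-values measure the spread between pools of plants. The fit was tested on simulated counts. A first limit set for that test was missed because of loci with low counts, and the test was then judged on loci over 10 CPM.

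Genes named with values in every library were those with the 3 largest called changes in each of the 6 comparisons and the one with the highest mean CPM in each class; of other lists, the 2 largest called changes in each direction against WT could be named. The 37 genes, the lists and the alternatives (other scalings, filters and tools, fits on 2 groups, a replicate block, a leaf value as covariate, fits without 1 library or without 2 WT libraries, and a block on the number in the library name) were chosen with earlier results of these data known. Upstream windows of 300 bases, the motif search in them and the comparison of 50-base stretches used the RefSeq genome and annotation TAIR10.1, and the window and the stretch length were chosen after the counts were in hand. Of 123 other list genes 1 was not analysed here.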

Additional observations from a re-analysis of the deposited data

Results flagged for a closer look

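In 152 groups of 4 libraries tested (37 genes and the mean of the 37, in 4 genotypes), 5 had a library far from its group's others on Dixon's criterion, and chance alone gives about 1 in 20. All values are log2 CPM. CYCB2;4 was at 4.33 in d14-7 replicate 3, against 4.62 to 4.65 in the other d14-7 libraries. CYCB1;3 was at 4.28 in scl28 replicate 2, against 4.12 to 4.13 in the others. Among the libraries labelled ckx3 ckx5, CYCA2;1 was at -0.01 in replicate 2, against 0.99 to 1.18, CDKB2;2 at 5.00 in replicate 1, against 5.24 to 5.27, and PLE at 5.78 in replicate 3, against 5.59 to 5.61. No WT library was marked, although WT had the widest spread, because its 4 values were spread over the whole range.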

How the results depend on the processing

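Counts are of the 37 genes called higher, or lower where said. Against WT (31 in d14-7, 19 in scl28 and 13 in the libraries labelled ckx3 ckx5 as reported), they were 35, 34 and 34 without WT replicates 1 and 2 and 7, 3 and 4 without WT replicates 3 and 4. With the leaf covariate they were 6, 33 and 32, and in fits on 2 groups 17, 5 and 7. limma-voom gave 23 in the libraries labelled ckx3 ckx5, where 14.9% of all loci were called higher. The shares of all loci moved with these settings too, and are given with the calls above. Fits without 1 library gave 22 to 34, 7 to 32 and 8 to 33. In d14-7 against scl28 (5 higher and 2 lower) the higher count was 0 with no filter, 0 with the leaf covariate and 10 in fits on 2 groups, and the lower count was 8 with the leaf covariate; fits without 1 library gave 0 to 4 higher and 1 to 2 lower. In d14-7 against the libraries labelled ckx3 ckx5 (3 higher and 4 lower), the higher count was 6 with RLE factors, the stricter filter and limma-voom, 9 with DESeq2, 17 in fits on 2 groups, and 0 with no filter or the leaf covariate; fits without 1 library gave 0 to 4 higher and 1 to 5 lower. In scl28 against the libraries labelled ckx3 ckx5 (0 higher and 2 lower), 3 were higher with the leaf covariate and 3 in fits on 2 groups, 0 were lower with no filter and 1 with the replicate block, and fits without 1 library gave 0 to 2 lower. With no filter more loci were tested, 31884 against 20947. The cause of the other shifts was not tested.

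With the leaf covariate the direction turned for 26 of the 37 genes in d14-7 against scl28, for 23 in d14-7 against the libraries labelled ckx3 ckx5 and for 1 in scl28 against those libraries. Other settings turned at most 8 genes of a comparison, with reported changes of at most 0.30 and none called. The genes that turned and were called in either fit did so with the leaf covariate. In d14-7 against scl28, log2 fold changes became -0.52 for CYCA1;1, -0.17 for CYCA2;4, -0.56 for KNOLLE, -0.01 for TES, -0.08 for POK1, -0.53 for PAKRP1 and -0.15 for PAKRP1L, and in d14-7 against the libraries labelled ckx3 ckx5 -0.03 for POK2. Replicate numbers are those of the sample titles, and 7 of the 16 libraries carry another number in their library names. Libraries with the same title number did not deviate together: 24 same-number pairs correlated at -0.28 to 0.34 (median 0), and other pairs at -0.35 to 0.37. The replicate block gave 31, 20 and 16 higher against WT, where 17.9%, 8.52% and 13.2% of all loci were. The 16 pairs with the same number in the library name correlated at -0.28 to 0.19 (median 0.01). A block on that number, added after the data were seen, gave 22, 13 and 8 higher against WT, where 9.93%, 6.76% and 10.1% of all loci were. It gave 0 higher and 1 lower in d14-7 against scl28, and 1 higher and 1 lower in d14-7 against the libraries labelled ckx3 ckx5. In scl28 against those it gave 0 higher and 2 lower. In that fit scl28 replicate 4 shares its number with no library and adds nothing. TMM, RLE and upper-quartile factors gave medians of the 37 genes within 0.02 of each other in every comparison.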

Other observations

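Of 17 leaf photosynthesis genes, 7 were higher in d14-7 than in WT, led by the light-harvesting genes CAB2 (log2 fold change 1.00 ± 0.24, SE) and CAB3 (0.74 ± 0.16). In scl28, 3 were lower, CAB3 by -0.48 ± 0.16 and LHCA1 by -0.40 ± 0.14 among them, and in libraries labelled ckx3 ckx5 3 were lower, RCA, the activase of Rubisco, by -0.83 ± 0.18 and GAPB by -0.60 ± 0.18 among them. Of 10 shoot meristem and boundary genes that passed the filter, 1 was higher and 3 lower in d14-7, where RAX1, a MYB factor of axillary meristems, was at -1.10 ± 0.25 and CUC1, an organ boundary factor, at -0.69 ± 0.20. The largest rise of the list there was 0.31, for CLV1, at a mean of 71 CPM against 57.2 CPM in WT. In scl28, 2 were higher, CUC3 by 1.24 ± 0.14 and CUC2 by 0.64 ± 0.18. In libraries labelled ckx3 ckx5, 1 was higher, CUC2 by 0.54 ± 0.18, and 3 were lower, among them RAX1 by -0.92 ± 0.25 and KNAT1 by -0.65 ± 0.17. Of 11 xylem genes, 2 were higher and 1 lower in d14-7, 2 were lower in scl28 and 3 were higher in libraries labelled ckx3 ckx5. XCP1, a xylem protease, was at 0.46 ± 0.08, -0.35 ± 0.08 and 0.43 ± 0.08 in the 3 mutants. The list did not move as 1: its changes in d14-7 ran from -1.06 to 0.46. NST1 went the other way from XCP1 there, at a mean of 1.21 CPM against 2.48 CPM in WT. Of 4 root genes 1 passed the filter, WOX5, with 1.59 ± 0.36, 1.08 ± 0.37 and 1.25 ± 0.36 at a summed level of all 4 of at most 1.93 CPM. Calls are those of edgeR at an adjusted p under 0.05, with 18.1% of all loci called higher and 20.6% lower in d14-7, 9.3% and 10.5% in scl28 and 13.6% and 16% in libraries labelled ckx3 ckx5. What part these tissues have in the values of the mitotic genes was not tested. The leaf covariate cannot decide it between mutants, since the leaf value of d14-7 lay above that of every library of the others.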
